A study of Mus musculus with 4 samples.

Results

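The genes described here are the 4 FoxO transcription factor genes of the mouse, Foxo1, Foxo3, Foxo4 and Foxo6, picked from the gene count table by their symbols and not by any measured value. They are 4 of 23282 features in the table, and all 4 were among the 13285 features abundant enough to test. The RNA came from C2C12 myotubes, the fused muscle cells grown from one mouse myoblast line that the labels give as female. All cultures had been kept without steroids. One group then received vehicle and the other 1 µM dexamethasone, a synthetic agonist of the glucocorticoid receptor, each for 2 h, with 2 libraries per group and 4 in all. A single cell line in culture has no nerve, blood supply or circulating hormones, and the labels do not say whether the libraries of a group came from separate cultures, so the p-values measure the spread between these libraries, which may be technical.

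FoxO proteins are forkhead DNA-binding factors that carry the transcriptional arm of insulin and growth factor signalling. When Akt or SGK kinases phosphorylate them, 14-3-3 proteins bind and hold them in the cytoplasm, and when this signal drops they enter the nucleus and activate genes of protein breakdown, autophagy, fuel choice, stress defence and cell cycle arrest. In skeletal muscle, Foxo1 and Foxo3 are best known as activators of the ubiquitin ligase genes of atrophy, a wasting state that glucocorticoids can bring on. The comparison of dexamethasone with vehicle asks how much of each FoxO gene's RNA was bound to chromatin, and so recently transcribed, shortly after the receptor was activated.

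The totals of the libraries ran from 19631435 to 88596296 counts. Fkbp5, a gene with a strong response to glucocorticoids, served as a check of the treatment labels and rose in both dexamethasone libraries (log2 fold change 5.32, SE 0.263, edgeR quasi-likelihood adjusted p = 0.0429). All 8 myotube markers looked at were abundant enough to test. The gene of the giant sarcomere protein titin, Ttn, made up 94.9% to 95.8% of their summed level, and had 118048 and 113324 CPM (counts scaled for library depth by TMM) in the replicate 1 libraries of vehicle and dexamethasone and 41058 and 39932 CPM in the replicate 2 libraries. The replicate 1 libraries were also the higher ones in both groups for Acta1, Ckm, Des, Myh3, Myog and Tnnt3. Ckm had 53.6 and 50.6 CPM in the replicate 1 libraries of vehicle and dexamethasone and 6.98 and 7.72 CPM in replicate 2. The gap was smaller for Tnnt3, at 378 and 434 CPM against 326.5 and 333 CPM. Each of the markers but Mymk overlapped between the groups. Mymk, the gene of the fusion protein myomaker, had 176 and 173 CPM with vehicle and 208 CPM in both dexamethasone libraries (log2 fold change 0.25, SE 0.115, edgeR quasi-likelihood adjusted p = 0.9999). None of 5 adipocyte markers was abundant enough to test, with Cfd and Cidec at 0 in every library, and neither were 4 of 5 macrophage markers, the summed level of the remaining macrophage marker being between 2.92 and 3.87 CPM. Of 5 bone cell markers 2 were tested, at a summed 0.580 to 1.94 CPM, with Ibsp at 0 in every library. The 5 markers of myoblasts and of dividing cells summed to 53.1 and 56.9 CPM with vehicle and 38.3 and 44.3 CPM with dexamethasone. Of these 5, only Pax7 was lower without overlap, and 4 had positive log2 fold changes. Their part in the FoxO values was not tested.

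The RefSeq promoter table (GRCm38.p6) held windows for Foxo1 and Foxo3, and none was matched for Foxo4 and Foxo6. The 250 bases before the start of each are shown because these members had the most reads and unlike log2 fold changes. These were 0.34 for Foxo1 and 1.49 for Foxo3, dexamethasone minus vehicle, and neither gene passed the test across all genes. Foxo1 lies at chr3:52268087-52268336 on the plus strand and Foxo3 at chr10:42276696-42276945 on the minus strand. Capitals mark each CCAAT box (CCAAT, or ATTGG on the other strand) and each GC box (GGGCGG, or CCGCCC on the other strand).
Foxo1: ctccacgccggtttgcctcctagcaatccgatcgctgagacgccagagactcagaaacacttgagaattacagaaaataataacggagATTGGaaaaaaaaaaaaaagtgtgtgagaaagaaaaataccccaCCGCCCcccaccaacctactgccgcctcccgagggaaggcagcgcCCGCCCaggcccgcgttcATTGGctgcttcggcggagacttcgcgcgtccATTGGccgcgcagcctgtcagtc
Foxo3: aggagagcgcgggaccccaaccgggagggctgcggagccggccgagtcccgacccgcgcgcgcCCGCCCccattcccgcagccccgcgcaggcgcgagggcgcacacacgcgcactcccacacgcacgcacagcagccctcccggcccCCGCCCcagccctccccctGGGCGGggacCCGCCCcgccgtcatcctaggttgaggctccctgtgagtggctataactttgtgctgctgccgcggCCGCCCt

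The Foxo1 window held 3 CCAAT boxes and 2 GC boxes, and the Foxo3 window no CCAAT box and 5 GC boxes. Among all 32851 windows of this length, 33.8% held any CCAAT box and 32.7% any GC box. How often a window held as many as 3 or 5 was not counted, nor were windows of like G and C content compared. G and C made up 56% of the Foxo1 window and 76.4% of the Foxo3 window, against a median of 52.4% over all windows. The hexamer that one subunit of the glucocorticoid receptor contacts, AGAACA or TGTTCT on the other strand, was in neither window, and in 16.1% of all windows. The full palindromic glucocorticoid response element, which contains that hexamer on each strand, was in neither window and in 3 of all windows. The FoxO site GTAAACA, searched on both strands, was in neither as well, and in 3.17% of all windows. These are descriptions of the letters in short windows, and sites farther from the start were not looked at.

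The members differed widely in level. Per kb of exon, and with vehicle, Foxo1 had 63.8 ± 15.1 CPM per kb, Foxo3 29.4 ± 3.95, Foxo6 15.8 ± 3.02 and Foxo4 1.62 ± 0.128 (SD, n = 2 each). Each step down in this order was larger than the SDs of the neighbours. With dexamethasone the order at the top closed up. Foxo3 then had 82.5 ± 6.17 CPM per kb of exon and Foxo1 80.7 ± 5.35 (SD, n = 2 each), which do not differ beyond their spread, while Foxo6 had 11.2 ± 1.12 and Foxo4 1.68 ± 0.122. Whether the counts include introns is not given in the sources used here. Taken per kb of the whole gene, Foxo1 stayed above Foxo3 with dexamethasone (8.24 ± 0.546 against 6.58 ± 0.492 CPM per kb), and Foxo3 and Foxo6 with vehicle lay within their spread of each other (2.35 ± 0.315 against 2.04 ± 0.389 CPM per kb).

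**Figure D1:**
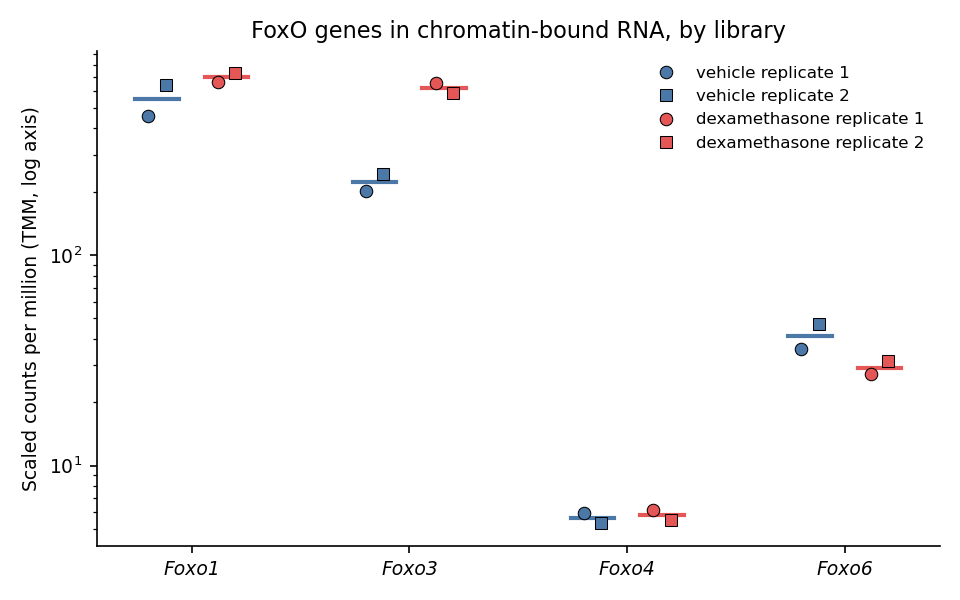
Level of each FoxO gene in each library, in TMM-scaled CPM on a log axis, with circles for replicate 1, squares for replicate 2 and a bar at the mean of the 2 libraries of a group. Foxo3 is near 223 CPM with vehicle and near 625 CPM with dexamethasone, while Foxo4 stays between 5.32 and 6.14 CPM in all 4 libraries.

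Of the 4 FoxO genes, none passed the test across all genes, and Foxo3 had the largest difference between the groups. With edgeR's quasi-likelihood test and an adjusted p under 0.05, 0.0376% of the tested genes were called higher and 0% lower. By the weaker standard that both dexamethasone libraries lie on the same side of both vehicle libraries, Foxo1 and Foxo3 were higher and Foxo6 lower, where 15% of tested genes were higher and 12.9% lower in this sense. Foxo4 overlapped between the groups. At an unadjusted p under 0.05, Foxo3 alone among the members stood above its vehicle level and no member below, where 4.09% of tested genes were higher and 1.69% lower by that standard. In such bulk RNA, fewer nuclei that transcribe a gene and less RNA in each nucleus cannot be told apart.

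Foxo3 (ENSMUSG00000048756) encodes the FoxO factor that drives both autophagy and proteasome genes in muscle. It had 3762 and 9261 counts in vehicle replicates 1 and 2, and 19720 and 55259 counts in dexamethasone replicates 1 and 2. Scaled by TMM, that was 202 and 244 CPM with vehicle and 658 and 592 CPM with dexamethasone. Both dexamethasone libraries were high and both vehicle libraries low, with a wide gap between the groups. The means were 223 ± 29.9 CPM with vehicle and 625 ± 46.7 CPM with dexamethasone (SD, n = 2 each), a 2.80-fold difference (95% interval 2.08 to 3.77).

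On the log2 scale the difference in Foxo3 was 1.49 (SE 0.162). Of the 13285 tested genes, 148, or 1.11%, had a larger log2 fold change than Foxo3, and 37 had a smaller p. Its p was 0.000416 before adjustment and 0.123 after it in edgeR's quasi-likelihood test, so the difference did not pass over all genes. It was 1.70 between the replicate 1 libraries and 1.28 between the replicate 2 libraries. Foxo3 passed in DESeq2's Wald test (adjusted p = 3.61e-09), where 1.77% of tested genes were called higher and 0.399% lower, and in edgeR's likelihood ratio test (adjusted p = 2.27e-08), where 1.83% and 0.339% were. It also passed in edgeR's quasi-likelihood test without vehicle replicate 2 (1.64, adjusted p = 0.0272), a fit that takes the lone vehicle library to vary like the dexamethasone libraries and called 0.613% of tested genes higher and 0.795% lower.

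Foxo1 (ENSMUSG00000044167) encodes the FoxO factor through which insulin restrains glucose output in liver, and which in muscle favours fat over glucose as fuel. Vehicle gave 8580 and 24469 counts and dexamethasone 19978 and 68356, which scaled to 460 and 645 CPM against 667 and 732 CPM. Vehicle replicate 1 was the low library, and vehicle replicate 2 lay just under dexamethasone replicate 1. With library size as the only scaling these 2 libraries changed places, at 697 CPM for vehicle replicate 2 and 616 CPM for dexamethasone replicate 1, so that the groups overlapped. The means were 553 ± 131 and 699 ± 46.4 CPM (SD, n = 2 each).

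The log2 fold change of Foxo1 was 0.34 (SE 0.208, 95% interval -0.21 to 0.89), with an edgeR quasi-likelihood adjusted p of 0.9999. Without vehicle replicate 1 it was 0.12, and without vehicle replicate 2 it was 0.61. Each of these fits sets 1 vehicle library against both dexamethasone libraries, so a difference between replicate numbers enters its value. The log2 fold change was 0.53 between the replicate 1 libraries and 0.18 between the replicate 2 libraries. GENCODE M21 places an antisense gene, Gm20402, and a gene on the same strand, Gm38034, over Foxo1. How reads over such genes were counted is not given in the sources used here.

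Foxo6 (ENSMUSG00000052135) encodes a FoxO factor that lacks one of the phosphorylation sites of the others and moves less between nucleus and cytoplasm. Its 667 and 1781 counts with vehicle and 814 and 2924 counts with dexamethasone came to 35.8 and 46.9 CPM against 27.2 and 31.3 CPM. The treated libraries were the low ones, with no overlap under any of the 4 scalings tried. The means were 41.4 ± 7.89 and 29.2 ± 2.94 CPM (SD, n = 2 each). The log2 fold change was -0.50 (SE 0.194, 95% interval -1.02 to 0.01). The unadjusted p was 0.0543 and the adjusted p 0.884 in edgeR's quasi-likelihood test. Within replicate numbers 1 and 2 the difference was -0.40 and -0.58. Without vehicle replicate 2 it was -0.28, the smallest size among the fits that left out 1 library.

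Foxo4 (ENSMUSG00000042903), an X-linked member of the family, was the scarcest. Its counts were 111 and 202 with vehicle and 184 and 517 with dexamethasone, or 5.95 and 5.32 CPM against 6.14 and 5.54 CPM. The libraries of the groups interleaved, and in both groups replicate 1 was the higher one. With library size as the only scaling, replicate 2 was the higher one in both groups. The means of 5.64 ± 0.446 and 5.84 ± 0.425 CPM (SD, n = 2 each) differed by less than either SD. The log2 fold change of 0.05 (SE 0.206) had a 95% interval of -0.50 to 0.60 and an edgeR quasi-likelihood adjusted p of 0.9999, so changes of moderate size in either direction lie inside the interval. Its sign turned without vehicle replicate 2 (-0.02) or dexamethasone replicate 1 (-0.02), and it was 0.13 without vehicle replicate 1 and 0.12 without dexamethasone replicate 2.

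**Figure D2:**
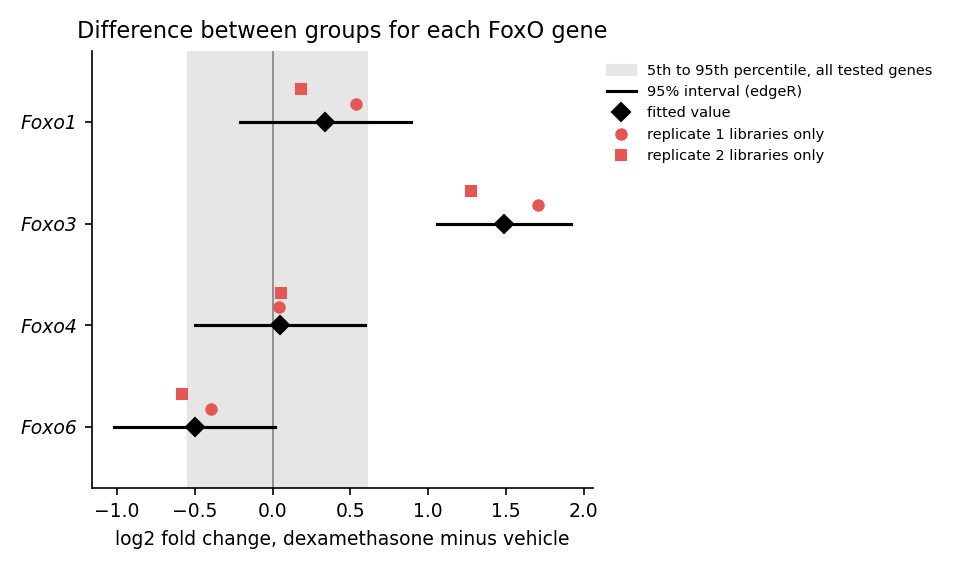
Log2 fold change of each FoxO gene, dexamethasone minus vehicle, with the fitted value as a diamond, its 95% interval as a line, the difference between libraries of one replicate number as red symbols, and the 5th to 95th percentile of all tested genes as a grey band from -0.54 to 0.60. The interval of Foxo3 (1.06 to 1.92) lies outside the band, and those of Foxo1, Foxo4 and Foxo6 include 0.

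The make-up of the FoxO reads differed between the groups. Foxo1 held 65.4% (95% Wilson interval 64.6% to 66.2%) and 68.5% (68.0% to 69.0%) of the summed FoxO counts in the vehicle libraries. It held 49.1% (48.6% to 49.6%) and 53.8% (53.5% to 54.1%) in the dexamethasone libraries. The share of Foxo3 was 28.7% (27.9% to 29.5%) and 25.9% (25.5% to 26.4%) with vehicle, against 48.5% (48.0% to 48.9%) and 43.5% (43.2% to 43.8%) with dexamethasone. In neither gene did the groups overlap, and the gap between the groups was wider than the gap between libraries of a group.

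Foxo6 took 5.08% (4.72% to 5.47%) and 4.99% (4.77% to 5.22%) with vehicle, and 2.00% (1.87% to 2.14%) and 2.30% (2.22% to 2.39%) with dexamethasone. Foxo4 never reached 1% of the FoxO reads, with 0.846% and 0.566% with vehicle and 0.452% and 0.407% with dexamethasone. The CPM of Foxo4 overlapped between the groups, so a lower share does not mean a lower level. Foxo1 also had a lower share with dexamethasone, though its mean was 553 CPM with vehicle and 699 CPM with dexamethasone. A larger Foxo3 count in the sum lowers the shares of the other members. These are shares of reads and not of molecules, since the genes differ in length, and the Wilson intervals cover counting error only. The summed level of the 4 genes was 704 and 941 CPM with vehicle, and 1358 and 1361 CPM with dexamethasone.

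**Figure D3:**
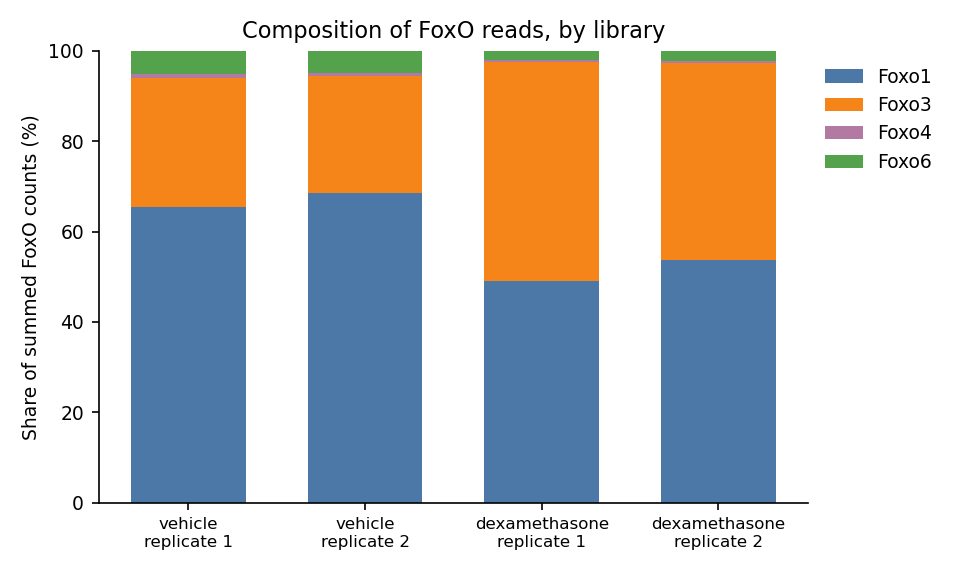
Share of each FoxO gene in the summed FoxO counts of each library, in percent, as stacked bars from 0 to 100%. The Foxo3 part goes from 25.9% and 28.7% with vehicle to 48.5% and 43.5% in the dexamethasone libraries.

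The genes were then compared with one another as ratios of counts within a library, which do not depend on how libraries are scaled. There were 6 pairs, and with 2 libraries against 2 the exact two-sided permutation test cannot give a p below 0.333, so no pair could pass. The pairs share their genes and are not independent. How often the groups lie apart in pairs of other genes was not looked at. For each Foxo3 read vehicle had 2.28 and 2.64 Foxo1 reads and dexamethasone 1.01 and 1.24. The log2 ratio of Foxo1 to Foxo3 was 1.30 ± 0.150 with vehicle and 0.16 ± 0.204 with dexamethasone (SD, n = 2 each). That difference of -1.13 (exact permutation p = 0.333, adjusted over the 6 pairs 0.4) was larger than the SD of either group, and was -1.17 and -1.09 within replicate numbers 1 and 2.

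The widest difference was that between Foxo3 and Foxo6, the members with the largest positive and negative fold changes. Their log2 ratio was 2.44 ± 0.0829 with vehicle and 4.42 ± 0.253 with dexamethasone (SD, n = 2 each), a difference of 1.98 or 3.95-fold (exact permutation p = 0.333, adjusted 0.4). Foxo3 over Foxo4 differed by 1.44 and Foxo1 over Foxo6 by 0.85, each with the same exact permutation p of 0.333 and with groups that did not overlap. Foxo4 over Foxo6 differed by 0.54, also without overlap (exact permutation p = 0.333), and by 0.82 and 0.26 without vehicle replicates 1 and 2. Foxo1 over Foxo4 was the one pair whose groups overlapped, with a difference of 0.31 (exact permutation p = 0.667, adjusted 0.667) that came to -0.02 without vehicle replicate 1, 0.63 without vehicle replicate 2 and 0.17 without dexamethasone replicate 2.

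**Figure D4:**
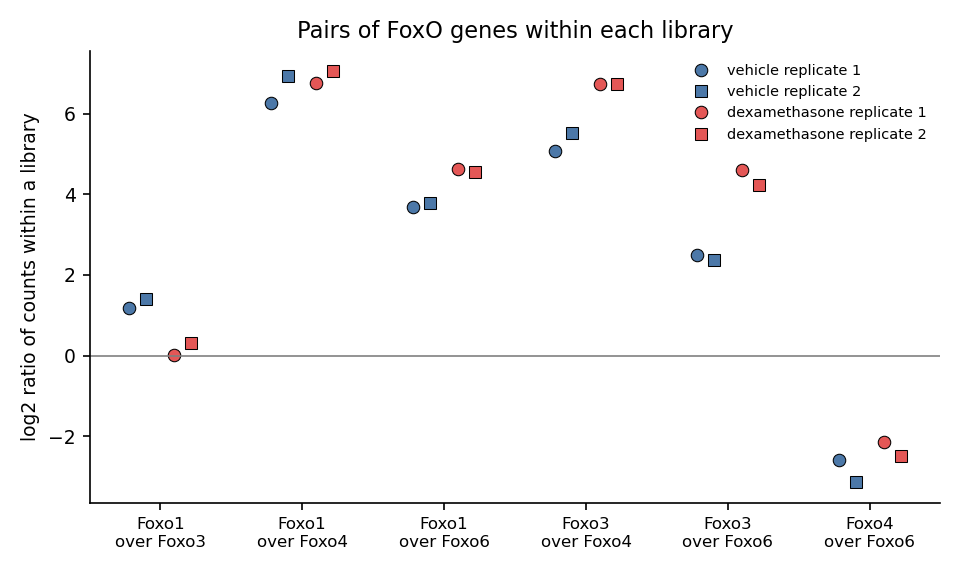
Log2 ratio of the counts of each pair of FoxO genes within each library, with vehicle in blue and dexamethasone in red, circles for replicate 1 and squares for replicate 2. The groups are apart in every pair but Foxo1 over Foxo4, and the Foxo1 to Foxo3 ratio comes down to near 0, or equal counts, with dexamethasone. Pairs share their genes, so they are not independent.

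To place each member among other genes, the genes with the most similar course over the 4 libraries were found by the Euclidean distance between log2 CPM values centred on each gene's mean, over 11630 genes with at least 20 counts in every library. Nearest to Foxo3 were Gpm6b (distance 0.126), Hmga2 (0.141), Gabrr2 (0.161), Bcl2l1 (0.162) and Sulf2 (0.187). Hmga2, the gene of a chromatin architectural protein, had 263 and 324 CPM with vehicle and 779 and 791 CPM with dexamethasone. Bcl2l1, which encodes the survival protein Bcl-xL, had 205 and 223 CPM with vehicle and 688 and 552 CPM with dexamethasone. The log2 fold changes of these 5 genes lay between 1.34 for Gabrr2 and 1.53 for Bcl2l1 and Sulf2, and none passed over all genes in edgeR's quasi-likelihood test (adjusted p from 0.117 to 0.194).

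Nearest to Foxo1 were Tmem189 (distance 0.0444), Piga (0.0450), Eif4ebp1 (0.0462), Aldh9a1 (0.0482) and Nr2f2 (0.0486), each with its lowest value in vehicle replicate 1. Eif4ebp1, the gene of a repressor of cap-dependent translation, had 69.6 and 95.2 CPM with vehicle and 97.1 and 106 CPM with dexamethasone, groups that overlapped under upper quartile scaling and with library size only. Its log2 fold change of 0.30 was 0.10 and 0.56 without vehicle replicates 1 and 2. Foxo6 was closest to Tnfrsf12a (0.0513), the receptor gene of the cytokine TWEAK, followed by Map7d1, Gls2, Pstpip2 and B4galt5 at distances up to 0.0589. Foxo4 was closest to D6Wsu163e (0.00767), Ufm1, Bnip2, Pot1b and Stx12 (0.0130), genes whose log2 fold changes lay between 0.04 and 0.06. No gene is among the nearest of more than one FoxO gene. The genes were picked by their course, so similar fold changes within a set, and sets that differ, are largely built in.

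All 39 genes of a list of FoxO regulators were tested, and 0 passed over all genes in edgeR's quasi-likelihood test. At an unadjusted p under 0.05, 2 were higher and 0 lower, beside 4.09% and 1.69% of all tested genes. The libraries of the groups did not overlap in 5 higher and 4 lower members, 12.8% and 10.3% of the list, beside 15% and 12.9% of all tested genes. The median log2 fold change of the list was -0.04, beside -0.0016 over all tested genes. Sgk1, the kinase that phosphorylates FoxO proteins much as Akt does, had 25.1 and 21.4 CPM with vehicle and 88.4 and 81.2 CPM with dexamethasone (log2 fold change 1.87, SE 0.152, edgeR quasi-likelihood adjusted p = 0.117). Sgk1 passed in DESeq2's Wald test (adjusted p = 3.53e-14), in the likelihood ratio test of edgeR (adjusted p = 6.56e-13), and in edgeR's quasi-likelihood test without vehicle replicate 2 (adjusted p = 0.0187) or with no filter beyond 1 count (adjusted p = 0.0458), where 0.129% of tested genes were called higher and 0% lower. Phlpp1, a phosphatase that removes an activating phosphate from Akt, differed by 0.66 (SE 0.133).

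Smaller values without overlap were those of Ywhae, a 14-3-3 gene, at 0.18 and of the deacetylase gene Sirt1 at 0.08. On the lower side were Skp2, a ubiquitin ligase subunit that marks Foxo1 for breakdown (-0.33, SE 0.144), the methyltransferase gene Setd7 (-0.16) and Sgk3 (-0.16). The groups overlapped in Akt1 and in Akt2, with log2 fold changes of -0.24 and 0.09. The groups of Sirt1 overlapped once library size was the only scaling. Single libraries moved 3 of these small values by over 1.5 times, as Ywhae was 0.11 and Sgk3 -0.10 without vehicle replicate 2, Sgk3 also -0.10 without dexamethasone replicate 2, and Setd7 -0.06 and -0.25 without vehicle replicates 1 and 2.

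Targets of FoxO factors were listed in 3 groups. In that of proteolysis and autophagy all 20 genes were tested and 0 passed over all genes in edgeR's quasi-likelihood test. At an unadjusted p under 0.05, 2 were higher and 0 lower, beside 4.09% and 1.69% of all tested genes. The groups did not overlap in 5 higher genes and in no lower one, 25% and 0% of the list. Over all tested genes these shares were 15% and 12.9%. The median log2 fold change was 0.09. Fbxo32, the ligase gene known as atrogin-1, had 94.6 and 78.3 CPM with vehicle and 177 and 130 CPM with dexamethasone (0.83, SE 0.208). Trim63, the ligase gene known as MuRF1, had 37.0 and 30.4 CPM with vehicle and 68.6 and 45.9 CPM with dexamethasone (0.76, SE 0.249). In each group the replicate 1 library of both ligase genes was the higher one, and Trim63 was at 0.45 without dexamethasone replicate 1.

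The other genes without overlap were the mitophagy receptor gene Bnip3 (0.60, SE 0.311), the autophagy kinase gene Ulk2 (0.12, SE 0.121) and Pik3c3, the lipid kinase gene of autophagosome formation (0.12, SE 0.128). The groups of all 3 overlapped with library size as the only scaling, and those of Pik3c3 also under upper quartile scaling. Bnip3 was 0.34 without vehicle replicate 1, 0.95 without vehicle replicate 2 and 0.30 without dexamethasone replicate 2. Without dexamethasone replicate 1, Ulk2 was 0.08 and Pik3c3 0.19, and Pik3c3 was 0.04 without dexamethasone replicate 2. Among the genes whose groups overlapped were Map1lc3b at 0.04, Gabarapl1 at -0.05, Bnip3l at -0.03 and Ulk1 at -0.18, all of the autophagy pathway. Groups also overlapped in Atg12 at 0.25, Atg14 at 0.21, Becn1 at 0.08, Atg4b at -0.02 and Sqstm1 at -0.08. Of the 20 genes of the list, 12 had positive and 8 negative log2 fold changes.

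Of 16 target genes in metabolism and growth signalling, 13 were tested; Pck1, G6pc and Igfbp1, targets known from liver, had too few counts. One gene passed, as Pdk4, the kinase that shuts pyruvate out of oxidation, rose by 3.11 on the log2 scale (SE 0.160, edgeR quasi-likelihood adjusted p = 0.0429) from 3.79 ± 0.122 to 32.7 ± 1.02 CPM (SD, n = 2 each). It did not pass under limma-voom, with library size as the only scaling (edgeR adjusted p = 0.110) or without vehicle replicate 1 (edgeR adjusted p = 0.0542). At an unadjusted p under 0.05, 3 were higher and 2 lower, beside 4.09% and 1.69% of all tested genes. The groups did not overlap in 4 higher and 2 lower genes, 30.8% and 15.4% of those tested. Over all tested genes these shares were 15% and 12.9%. The median of the list was 0.21.

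Irs2, an adaptor of the insulin receptor, had 16.6 ± 2.35 CPM with vehicle and 34.5 ± 2.94 CPM with dexamethasone (SD, n = 2 each; log2 fold change 1.05, SE 0.176). Sesn1 and Sesn3, which encode related inhibitors of mTORC1, had values of opposite sign. Sesn1 had 185 ± 34.1 CPM with vehicle and 332 ± 74.8 CPM with dexamethasone (SD, n = 2 each; 0.85, SE 0.231), and Sesn3 had 80.7 ± 0.367 CPM with vehicle and 43.3 ± 9.55 CPM with dexamethasone (-0.90, SE 0.192). Lpl, the lipase gene for circulating triglyceride, had 9.23 and 7.77 CPM with vehicle and 3.47 and 3.79 CPM with dexamethasone (-1.22, SE 0.214). In edgeR's quasi-likelihood test none of these 4 genes passed over all genes (adjusted p of 0.213 for Irs2, 0.513 for Sesn1, 0.341 for Sesn3 and 0.230 for Lpl). DESeq2's Wald test called Irs2 (adjusted p = 0.00252), Lpl (0.00867) and Sesn3 (0.0169), and so did edgeR's likelihood ratio test (adjusted p of 0.00358, 0.00932 and 0.0239).

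The third group, of stress defence, cell cycle and cell death, had 18 genes with 16 tested and 0 past the threshold in edgeR's quasi-likelihood test. At an unadjusted p under 0.05, 1 was higher and 1 lower, beside 4.09% and 1.69% of all tested genes. The groups did not overlap in 2 higher and 2 lower genes, 12.5% each, beside 15% and 12.9% of all tested genes. The median of the list was 0.08. Selenop, a selenium carrier gene, was the highest at 1.13 (SE 0.413) on 71 to 475 counts per library, and was 0.73 without vehicle replicate 2. Rbl2, a relative of the retinoblastoma gene, was at 0.10, and at 0.16 and 0.06 without vehicle replicates 1 and 2. On the lower side, Mxi1, which encodes an antagonist of Myc, was at -0.52 (SE 0.183) and the cyclin gene Ccnd2 at -0.46 (95% interval -1.25 to 0.34). The value of Ccnd2 rested on vehicle replicate 2, and was -0.02 without that library and -0.77 without vehicle replicate 1. The CDK inhibitor genes Cdkn1a and Cdkn1b had log2 fold changes of 0.06 and -0.11 with groups that overlapped. The groups also overlapped in Rbl2 and Ccnd2 once library size was the only scaling, and in Rbl2 under upper quartile scaling.

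Of the 40 other forkhead genes in the table, 15 were tested and 0 passed over all genes in edgeR's quasi-likelihood test. At an unadjusted p under 0.05, 1 was higher and 0 lower, beside 4.09% and 1.69% of all tested genes. The groups did not overlap in 4 higher and 3 lower genes, 26.7% and 20% of those tested. Over all tested genes these shares were 15% and 12.9%. The median log2 fold change of the list was -0.09. Foxp1, a forkhead repressor, had more counts than Foxo1 in all 4 libraries. It had 603 and 758 CPM with vehicle and 1057 and 1024 CPM with dexamethasone (0.61, SE 0.168, edgeR quasi-likelihood adjusted p = 0.521). Foxc1 (0.53, SE 0.209), Foxm1 (0.51, SE 0.285) and Foxq1 (0.40, SE 0.372) were higher on at most 645 counts in a library, with Foxq1 at 0.62 and 0.12 without dexamethasone replicates 1 and 2. Foxl1 (-0.82, SE 0.357), Foxc2 (-0.33, SE 0.362) and Foxn2 (-0.09, SE 0.124) were lower, with the groups of Foxn2 and Foxq1 overlapping once library size was the only scaling. Foxc2 was -0.54 and -0.11 without dexamethasone replicates 1 and 2. Among these 15 genes, no log2 fold change was as large as that of Foxo3. A further 13 forkhead genes were listed at 0 in all 4 libraries, and 3 of these stand in long runs of neighbouring genes on one strand that are all listed at 0, so they cannot be read as silent.

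**Figure D5:**
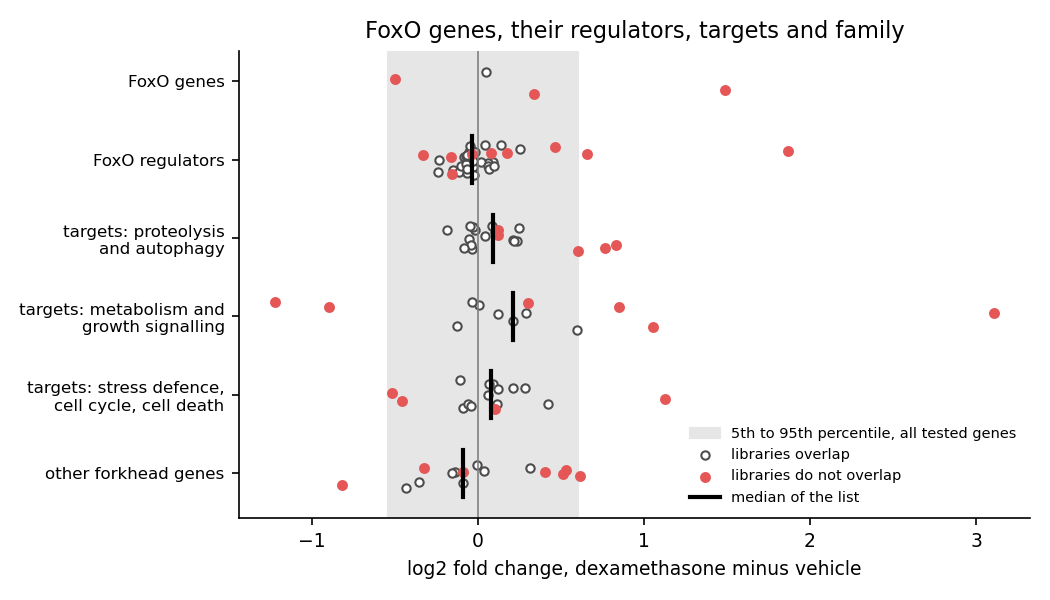
Log2 fold change, dexamethasone minus vehicle, of the FoxO genes, the tested FoxO regulators, FoxO targets in 3 groups, and other forkhead genes, with filled points where the libraries of the groups do not overlap, a bar at each list's median and a grey band for the 5th to 95th percentile of all tested genes. The medians lie between -0.09 and 0.21, and the points farthest out are Pdk4 at 3.11, Sgk1 at 1.87 and Foxo3 at 1.49.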

How the data were processed

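Chromatin-bound RNA was sequenced in 4 libraries. The authors deposited 1 table of unnormalized counts for each gene. Per the submitters' processing notes, TopHat2 2.0.13, SAMtools 1.1, HTSeq 0.6.1, DESeq2 1.18.1 and the build mm9 were used, with no role or order given. Both of 2 kits appear in the labels, for stranded mRNA and for stranded total RNA, and the counting mode is not given in the sources used here. Of 23333 rows, 51 repeats were used once. Features passing filterByExpr (minimum count 10, total 15) were scaled by TMM and tested with edgeR 4.0.16 in R 4.3.3 (quasi-likelihood, group only, Benjamini-Hochberg over all 13285); SE and 95% intervals come from its F statistic. The code recovered known changes in simulated data with less spread between libraries than here. That is a check of the code and not of how small a change could be seen. Gene lengths came from GENCODE M21 (GRCm38), matched by Ensembl ID for 99.5% of tested genes. The members and lists were chosen with earlier results of these data known. Named list genes were those past the threshold and, where groups did not overlap and every library of the group with more had 20 counts or above, the 5 highest and 3 lowest log2 fold changes; nearest genes were the 5 closest. Some list members are counted but not reported here by name. Akt1, Akt2, Map1lc3b, Gabarapl1, Bnip3l, Ulk1, Cdkn1a, Cdkn1b, Pax7, Ttn, Mymk and the markers at 0 fall outside this rule and were chosen after their values were seen. The same holds for Atg12, Atg14, Becn1, Atg4b, Sqstm1 and the further myotube markers named. Ratios were tested by exact permutation (scipy 1.17.1). Alternatives were 3 other scalings, 2 filters, DESeq2 1.42.0, limma-voom (limma 3.58.1), edgeR's likelihood ratio test, a replicate block, thinning to the smallest total, and leaving out each library.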

Additional observations from a re-analysis of the deposited data

How the results depend on the processing

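Vehicle replicate 1 is the shallowest library, and Foxo4 has 111 counts there, which limits how small a change in it could be seen. The labels do not say that a replicate number marks a shared day or culture, so with only 2 pairs the numbers were not taken to pair libraries, although across genes, which are not independent, the replicate 1 minus replicate 2 difference with vehicle followed that with dexamethasone (r = 0.734). In a fit with the replicate block, 3 of the 4 FoxO genes passed in edgeR's quasi-likelihood test, Foxo1 at 0.357 (adjusted p = 0.0449), Foxo3 at 1.49 (adjusted p = 0.000369) and Foxo6 at -0.503 (adjusted p = 0.00701), where 913 of the 13285 tested genes were called higher and 768 lower. The common biological coefficient of variation, a measure of spread between libraries, was 0.245 in the main test and 0.0552 with the block. Fits that left out a library had no block, so a difference between replicate numbers enters their values. Ratios between members have the same mean difference under the replicate block by construction.

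The main test called 5 genes higher and 0 lower. That count was 235 and 53 in DESeq2's Wald test, 243 and 45 in edgeR's likelihood ratio test, 0 higher in limma-voom (the quasi-likelihood test had 543 and 225 with an unadjusted p below 0.05), and 23 higher with no filter beyond 1 count; leaving out 1 library gave 4 to 84 higher and 0 to 109 lower, the most without vehicle replicate 2. Foxo3 was 1.47 under DESeq2's Wald test and 1.49 under the likelihood ratio test, passing in both, and ran from 1.36 to 1.64 without single libraries. Its adjusted p ran from 3.61e-09 to 0.234 over 14 alternatives. Foxo1 ran from 0.118 to 0.611, Foxo6 from -0.681 to -0.283 and Foxo4 from -0.0231 to 0.132 without single libraries, and Foxo4 was -0.0320 with libraries thinned to the smallest total. The ratio differences ran from -1.28 to -0.989 for Foxo1 over Foxo3, -0.0158 to 0.632 for Foxo1 over Foxo4, 0.802 to 0.897 for Foxo1 over Foxo6, 1.22 to 1.66 for Foxo3 over Foxo4, 1.80 to 2.16 for Foxo3 over Foxo6 and 0.265 to 0.818 for Foxo4 over Foxo6. Per kb of the whole gene in place of exons, the log2 level ratio with vehicle became 1.46 (Foxo1 over Foxo3), 0.210 (Foxo3 over Foxo6) and 1.19 (Foxo6 over Foxo4), and with dexamethasone 0.324 (from -0.0319), 2.19 and 0.647, which follows from the lengths used. Beyond the lengths the cause was not tested. Each of the 31 named genes that are not FoxO genes had a result under each of the 14 alternatives. Of these results, counted by gene and alternative, 406 kept the call of the main test, and 24 passed where the main test did not. The replicate block gave 14 of these, among them Sgk1, Irs2, Lpl and Sesn3, which also passed in other fits, and Sesn1, Phlpp1, Fbxo32, Trim63, Bnip3, Selenop, Mxi1, Foxp1 and Foxc1, which passed in no other. A further 4 no longer passed (3 of Pdk4, and Fkbp5 under limma-voom), and none reversed.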
